A study of Homo sapiens with 6 samples.

Results

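The NRF2 antioxidant targets described here are 9 genes, HMOX1, NQO1, GCLM, GCLC, TXNRD1, SRXN1, PGD, OSGIN1 and ME1, taken by symbol from the tables of the 6 libraries. All 9 were found among the 23062 identifiers listed, and all 9 passed the filter on low values that left 12359 genes for testing. The libraries came from DU145, a human prostate cancer cell line that grew from a brain metastasis and does not depend on androgen. The control group is 3 libraries of cells kept in MEM medium for 48 h, and the TAX group is 3 libraries of cells given taraxasterol (TAX), a plant triterpene, for 48 h at its IC50 in these cells, 56 µM. Both groups carry the genotype label WT. TAX was dissolved in DMSO and the controls are labelled as medium, so TAX and a possible effect of its solvent cannot be told apart. Nothing in the labels says whether the replicates were separate cultures, so p-values measure the spread between these libraries, which may be technical. The question for these genes is whether TAX, which has been described as anti-oxidative, moved the transcripts of the cell's own antioxidant program.

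NRF2, the product of NFE2L2, is a transcription factor that the adaptor KEAP1 holds in the cytoplasm and hands to a CUL3 ubiquitin ligase for destruction. When oxidants or electrophiles modify KEAP1, NRF2 escapes, pairs with a small MAF protein in the nucleus and binds antioxidant response elements (AREs), while BACH1 competes for the same elements. Its targets make glutathione, reduce thioredoxin and quinones, break down heme and supply the NADPH on which these reactions run.

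Values were read as FPKM, in which fragment numbers are corrected for transcript length and sequencing depth, so levels of different genes can be set side by side. A level is an average over the culture, and fewer expressing cells cannot be told apart from less RNA per cell. The FPKM of a library summed to between 322483 and 363724, and the read depth is unknown. Control replicate 3 had the lowest sum, and the median gene in it lay 0.12 below its own mean over the 6 libraries on the log2(FPKM + 1) scale, while the medians of the other 5 libraries lay 0.017 to 0.035 above. The estimates of the 9 genes are therefore given with and without it. The label DU145 held against the markers: KRT8, KRT18, KRT19, EPCAM and CDH1 were between 40.7 and 173 FPKM, and KLK3, KLK2 and TMPRSS2, genes of differentiated prostate luminal cells, were at most 0.0191 FPKM. Of 12 markers of fibroblasts, leukocytes and endothelium, 10 were at most 0.0755 FPKM, the exceptions being COL1A1 at 1.42 to 2.08 FPKM and the lysosomal gene CD68 at 20.01 to 33.4 FPKM. With TAX, COL1A1 was lower and CD68 higher without overlap between the groups (limma adjusted p = 0.197 and 0.0884), and their part in the results below was not tested.

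The ARE is the sequence feature for which these genes are known, so it was looked for in the 300 bases around each start site (250 before and 50 after, RefSeq, GRCh38.p14). Windows were read for 8 of the 9 genes, all but HMOX1, and TXNRD1 has 2 of them. The letters searched were TGACNNNGC, the core of an ARE, on both strands. They were present for 4 of the 8 genes, GCLM, TXNRD1, PGD and ME1, and in 13.3% of all 35116 windows. The stretches below, written 5′ to 3′ on the strand of the gene with the match in capitals, show where the core lies in the genes whose levels follow. A match that starts with GC is the core read on the opposite strand.
GCLM, chr1:93909431-93909494, minus strand, core 34 to 26 bases before the start: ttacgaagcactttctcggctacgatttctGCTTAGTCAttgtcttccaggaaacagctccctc
TXNRD1, first start, chr12:104215650-104215718, plus strand, core 99 to 91 bases before the start: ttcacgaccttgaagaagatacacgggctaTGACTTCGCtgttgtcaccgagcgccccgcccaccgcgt
TXNRD1, second start, chr12:104286900-104286968, plus strand, core 102 to 94 bases before the start: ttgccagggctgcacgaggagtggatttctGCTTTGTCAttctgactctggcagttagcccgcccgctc
PGD, chr1:10398833-10398901, plus strand, core 201 to 193 bases before the start: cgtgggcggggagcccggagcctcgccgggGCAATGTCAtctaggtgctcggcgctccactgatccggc
ME1, chr6:83431150-83431218, minus strand, core 137 to 129 bases before the start: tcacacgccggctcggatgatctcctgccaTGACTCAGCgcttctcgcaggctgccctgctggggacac
In ME1 the core overlaps TGACTCA, a form of the AP-1 letters TGANTCA, which were present in 7.71% of all windows and, among the 8 genes, in ME1 and OSGIN1. The OSGIN1 match lies 97 to 91 bases before the start and has no ARE core around it.
OSGIN1, chr16:83953113-83953179, plus strand: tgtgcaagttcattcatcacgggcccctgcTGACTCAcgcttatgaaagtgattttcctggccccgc
Further cores reached across the first start of TXNRD1 and lay 12 to 20 bases after the start of ME1. NQO1, GCLC and SRXN1 held neither motif in this window. Sequence farther from the start was not searched, so a gene without a match here may still have an ARE elsewhere. The starts used here are from RefSeq and can differ from the ends of the gene spans given below, which are from GENCODE. The stretches of PGD, OSGIN1 and the second TXNRD1 start lie inside those spans. A match of letters is not a measured binding site.

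The 9 genes were not detectably changed by TAX. None had an adjusted p under 0.05 (limma on log2(FPKM + 1), Benjamini-Hochberg over 12359 genes), where 0.477% of all tested genes did, and 0 of 9 had an unadjusted p under 0.05, where 10.1% of all tested genes did. None of them had its TAX libraries separated from its control libraries, which was so for 17.9% of all tested genes. By estimate 4 genes were higher and 5 lower with TAX, where 8537 of the 12359 tested genes were higher and 3822 lower. The median of their log2 fold changes was -0.040, beside 0.054 over all tested genes. Without control replicate 3 the median over all tested genes was 0.0058, and of the 9 genes 2 were higher and 7 lower. For 8 of the 9 genes the 95% interval of the fold change lay within 1.5-fold in either direction, the exception being GCLC. A smaller change is not excluded by these intervals. The 59 genes that did pass had absolute log2 fold changes of 0.43 or more, and 31 of them had estimates within 1.5-fold. The 1.5-fold limit therefore does not set the 9 genes apart from genes that passed. On the log2 scale the intervals of HMOX1 and GCLC reached down to -0.55 and -0.62, past 0.43 in size.

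**Figure D1:**
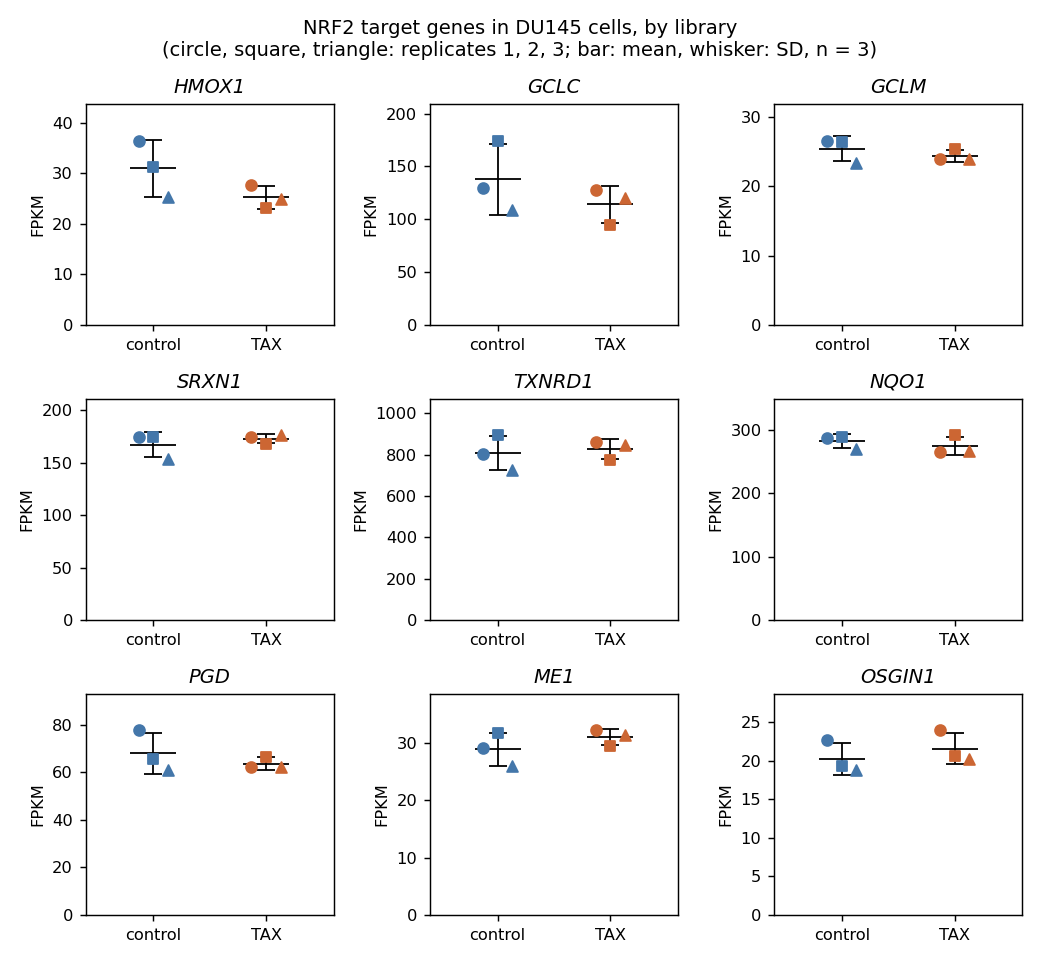
FPKM (vertical axes, from 0) of the 9 NRF2 target genes in the 3 control and 3 TAX libraries, with 1 point per library, the group mean as a bar and the SD as a whisker (n = 3). The groups overlap for every gene, and control replicate 3 (triangle) is the lowest of the 3 controls in all 9 panels.

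HMOX1, heme oxygenase 1, the inducible enzyme that cuts heme into biliverdin, iron and carbon monoxide, had the smallest p of the 9 genes. It lies on chromosome 22 from 35380361 to 35394214 (GENCODE 29, GRCh38). Its level was 36.5, 31.3 and 25.2 FPKM in the controls, replicates 1 to 3, against 27.7, 23.2 and 24.8 FPKM with TAX, again by replicate number, an order kept for the other genes. Control replicates 1 and 2 were above every TAX library, while control replicate 3 fell among them. The group means were 31.0 ± 5.62 and 25.2 ± 2.28 FPKM (SD, n = 3 each), a fold of 0.827 with a 95% interval of 0.682 to 1.00 (log2 fold change -0.27, standard error 0.12, adjusted p = 0.492 from limma). With control replicate 3 left out the log2 fold change was -0.41, with control replicate 1 left out -0.15, and the adjusted p stayed above 0.05 in each of those fits (0.178 and 0.611 from limma). Centring each library on its median, which lifts control replicate 3, gave -0.33 with an unadjusted p of 0.00987 and an adjusted p of 0.227 (limma), and the groups then no longer overlapped.

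GCLC, the catalytic subunit of glutamate-cysteine ligase, the first and rate-limiting step of glutathione synthesis, varied most. The gene spans chromosome 6 from 53497341 to 53616970. It had 130, 174 and 109 FPKM in the control replicates in order and 128, 94.7 and 120 FPKM in the TAX replicates. Control replicate 2 was far above the rest, control replicate 1 just above the highest TAX library, and control replicate 3 among the TAX libraries. The fold was 0.839 with a 95% interval of 0.652 to 1.08 (adjusted p = 0.621 from limma). The log2 fold change of -0.25 shrank to -0.070 without control replicate 2 and to -0.12 without TAX replicate 2, and grew to -0.41 without control replicate 3, where the groups no longer overlapped. That separation follows from leaving out the only control that was not above every TAX library. The spread of GCLC between replicates was larger than that of 97.2% of all tested genes, and that of HMOX1 larger than that of 92.2%.

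GCLM, the modifier subunit of the same ligase, which lets the catalytic subunit work at cellular glutathione levels, hardly varied. It lies on chromosome 1 from 93885205 to 93909456 and had 26.6, 26.3 and 23.3 FPKM in the control and 23.9, 25.3 and 23.9 FPKM in the TAX libraries. The TAX values sat between the lowest and the highest control. The fold was 0.962, with a 95% interval of 0.849 to 1.09 (adjusted p = 0.830 from limma). Without control replicate 3 the log2 fold change of -0.056 became -0.11 and the groups no longer overlapped (adjusted p = 0.522 from limma). Here too the library left out was the only control that was not above every TAX library. Taken within each library, where scaling between libraries plays no part, the ratio of GCLM to GCLC was 0.190 ± 0.0340 in control and 0.218 ± 0.0435 in TAX-treated cells (mean ± SD of 3 libraries; two-sided p = 0.6 by an exact permutation test, which cannot go below 0.1 here). In each of the 6 libraries the length-corrected level of the catalytic subunit was above that of the modifier.

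TXNRD1, thioredoxin reductase 1, the selenoprotein that passes electrons from NADPH to thioredoxin, was the most abundant of the 9 genes. It spans chromosome 12 from 104215779 to 104350305. Its level was 803, 893 and 728 FPKM in the control and 864, 775 and 845 FPKM in the TAX libraries. The highest and the lowest value were both controls. The fold was 1.03 with a 95% interval of 0.871 to 1.21 (adjusted p = 0.916 from limma), and its log2 fold change of 0.039 turned to -0.034 without control replicate 3. It ranked 25 by mean level among all identifiers. EID3, a gene inside TXNRD1 on the same strand, was at 4.43 to 6.38 FPKM.

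SRXN1, sulfiredoxin 1, which rescues over-oxidised peroxiredoxins, lies on chromosome 20 from 646615 to 653370. The libraries held 174, 174 and 153 FPKM in control and 174, 168 and 176 FPKM after TAX treatment. Apart from control replicate 3 the 5 other libraries were within a narrow band. The fold was 1.03 with a 95% interval of 0.904 to 1.18 (adjusted p = 0.860 from limma), and leaving out control replicate 3 turned the log2 fold change from 0.048 to -0.013. A longer gene on the same strand, AL121758.1, overlaps SRXN1 and was listed at no more than 0.0788 FPKM.

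NQO1, the quinone reductase whose induction is the classic readout of NRF2, lies on chromosome 16 from 69706996 to 69726951 and had the narrowest spread. The controls had 287, 289 and 270 FPKM, and the TAX libraries had 266, 291 and 267 FPKM. The lowest and the highest value were both TAX libraries. The fold was 0.973, with a 95% interval of 0.852 to 1.11 (adjusted p = 0.892 from limma). The log2 fold change was -0.040 with and -0.071 without control replicate 3.

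PGD and ME1 supply NADPH, PGD as the second dehydrogenase of the pentose phosphate pathway and ME1 as the cytosolic malic enzyme. PGD, on chromosome 1 from 10398592 to 10420144, had 77.6, 65.4 and 60.8 FPKM in control and 62.2, 66.6 and 62.3 FPKM after TAX treatment. Control replicate 1 stood above the other 5 libraries, which were close to each other, and without it the log2 fold change moved from -0.085 to 0.013, and without control replicate 3 to -0.16. The fold of PGD was 0.942 with a 95% interval of 0.809 to 1.10 (adjusted p = 0.783 from limma). ME1, on chromosome 6 from 83210389 to 83431071, had 29.02, 31.6 and 25.9 FPKM in control and 32.1, 29.4 and 31.4 FPKM after TAX treatment. The 3 TAX values lay above the middle control, and the groups overlapped through control replicate 2. Its fold was 1.07 with a 95% interval of 0.935 to 1.23 (adjusted p = 0.711 from limma). The log2 fold change of 0.10 shrank to 0.030 without control replicate 3 and grew to 0.17 without control replicate 2, where the groups no longer overlapped.

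OSGIN1, an oxidative stress-induced growth inhibitor, lies on chromosome 16 from 83948282 to 83966332 and was the least abundant of the 9 genes. Its level was 22.7, 19.3 and 18.8 FPKM in the control and 23.9, 20.6 and 20.2 FPKM in the TAX libraries. Control replicate 1 and TAX replicate 1 were the high libraries of their groups. The fold was 1.06 with a 95% interval of 0.914 to 1.24 (adjusted p = 0.778 from limma). From 0.088 the log2 fold change went to 0.039 without control replicate 3, to 0.014 without TAX replicate 1 and to 0.17 without control replicate 1, in the last case with no overlap. Control replicate 1 was the only control above any TAX value, so that separation follows from leaving it out. Over the 9 genes the exact two-sided permutation p of the single genes ran from 0.2 to 0.7.

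**Figure D2:**
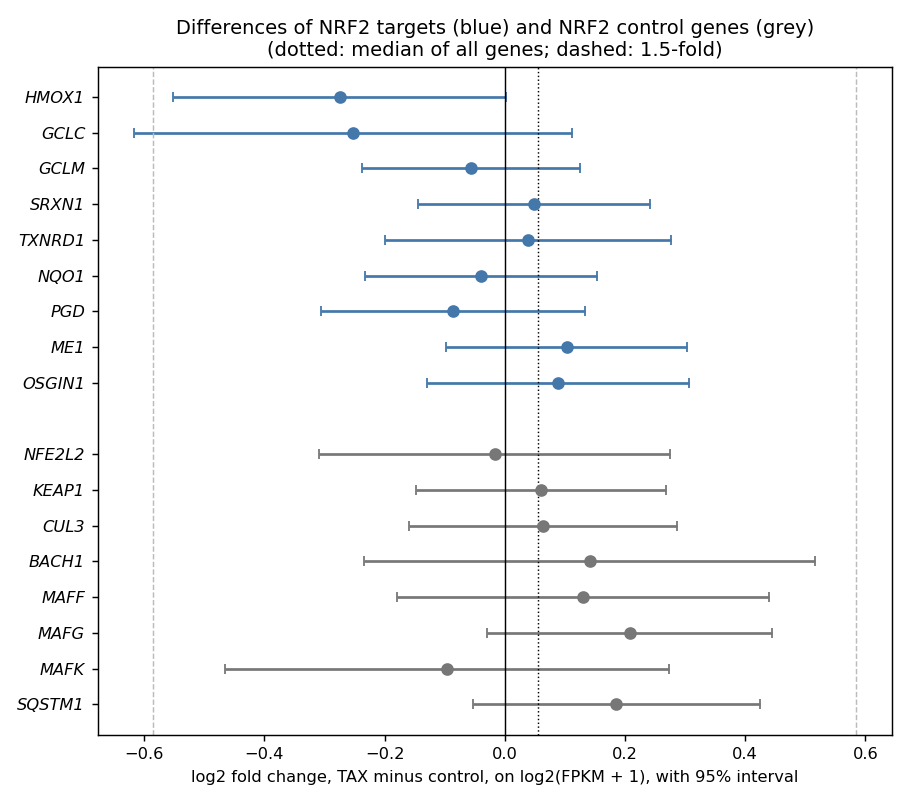
Log2 fold change (TAX minus control, horizontal axis, on log2(FPKM + 1)) with its 95% interval for the 9 NRF2 targets in blue and 8 genes of NRF2 control in grey, n = 3 libraries per group. All intervals reach across 0, and only that of GCLC passes the dashed line at 1.5-fold.

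By mean level over the 6 libraries the order was TXNRD1 with 818 FPKM, NQO1 with 278, SRXN1 with 170, GCLC with 126, PGD with 65.8, ME1 with 29.9, HMOX1 with 28.1, GCLM with 24.9 and OSGIN1 with 20.9 FPKM. TXNRD1 was 2.94 times NQO1 and NQO1 1.64 times SRXN1, with no overlap between libraries. The libraries of SRXN1 and GCLC overlapped, as did those of each next pair from ME1 down to OSGIN1, so the order within these stretches is not larger than the spread. TXNRD1, NQO1, SRXN1 and GCLC stood in the top 2.90% of the tested genes by mean level, and OSGIN1, the lowest of the 9, at 26.8%. The 9 genes together took 0.436%, 0.488% and 0.438% of the summed FPKM in the control and 0.455%, 0.417% and 0.455% in the TAX libraries, shares that overlapped.

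**Figure D3:**
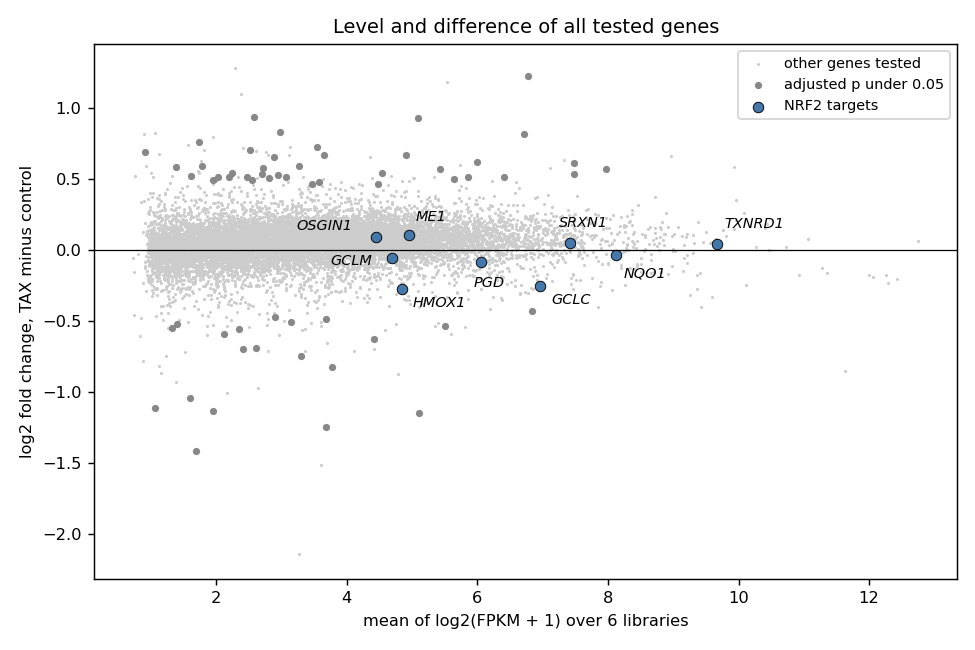
Mean of log2(FPKM + 1) over the 6 libraries (horizontal axis) against the log2 fold change, TAX minus control (vertical axis), for the 12359 tested genes, 1 point per gene. The 9 NRF2 targets (blue, named) lie between -0.27 and 0.10, inside the cloud of the other genes, while the 59 genes with an adjusted p under 0.05 (dark grey) lie outside 0.43 in either direction.

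The transcripts that control NRF2 gave no call either. Of 11 genes listed for this control all were tested, 9 were higher and 2 lower by estimate, beside 8537 higher of 12359 over all tested genes, and 0 had an adjusted or unadjusted p under 0.05. NFE2L2, the gene of NRF2, had 57.7, 62.3 and 42.2 FPKM in the control and 55.9, 48.8 and 53.7 FPKM in the TAX libraries (fold 0.989, 95% interval 0.807 to 1.21; adjusted p = 0.970 from limma). All 3 TAX values of NFE2L2 fell within the range of the controls, and its log2 fold change of -0.017 became -0.18 without control replicate 3 and 0.093 without control replicate 2. KEAP1 had 19.97, 22.2 and 17.4 FPKM in the control and 21.2, 20.7 and 20.2 FPKM in the TAX libraries (fold 1.04, 95% interval 0.903 to 1.20; adjusted p = 0.840 from limma). NRF2 is controlled mainly through the stability of its protein, which these data do not measure. CUL3, the scaffold of the ligase, had 12.8 ± 0.696 FPKM without and 13.5 ± 1.90 FPKM with TAX, and the competitor BACH1 had 15.6 ± 4.36 and 17.1 ± 2.78 FPKM (SD, n = 3 each). Of the small MAF partners, MAFG had 26.2 ± 3.92 and 30.2 ± 2.04 FPKM, MAFF 8.50 ± 2.26 and 9.22 ± 0.497 FPKM and MAFK 46.4 ± 11.2 and 43.0 ± 7.74 FPKM (SD, n = 3 each). SQSTM1, the autophagy receptor that binds KEAP1 and is itself an NRF2 target, had 197 ± 26.2 and 224 ± 11.1 FPKM (SD, n = 3 each), and the adjusted p of these 6 genes ran from 0.540 to 0.854 (limma).

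The wider antioxidant system was read from 6 further lists, and in none of them did a gene have an adjusted p under 0.05. Their counts stand against all tested genes, of which 8537 of 12359 were higher by estimate and 10.1% had an unadjusted p under 0.05, 7.73% higher and 2.41% lower. The directions in this background depend on the scaling of the libraries. With such a p, 682 genes were higher and 815 lower under median centring, and 710 and 688 without control replicate 3. In heme and iron metabolism 11 of 12 genes were tested, 7 were higher and 4 lower by estimate, and 1 had an unadjusted p under 0.05, a share close to that over all tested genes. That gene was HMOX2, the constitutive heme oxygenase, with 21.4, 17.4 and 16.5 FPKM in the control and 22.0, 28.1 and 22.8 FPKM in the TAX libraries, where all 3 TAX values were above all 3 controls (fold 1.30, 95% interval 1.09 to 1.56; adjusted p = 0.303 from limma). FTL, the ferritin light chain and an NRF2 target, had 1217 ± 160 and 1018 ± 46.1 FPKM (mean ± SD of 3 libraries in each group; limma adjusted p = 0.505). The ratio of HMOX1 to HMOX2, chosen after both values had been seen and given without a test, was 1.71, 1.80 and 1.53 in the control and 1.26, 0.824 and 1.09 in the TAX libraries. Every TAX library had a lower ratio than every control library. HMOX2 by itself already separated the groups, as did 17.9% of all tested genes, so this is no separate result about HMOX1.

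In the glutathione system 16 of 18 genes were tested, 10 were higher and 6 lower by estimate, and 0 had an unadjusted p under 0.05. The smallest p were those of MGST1, a microsomal glutathione transferase with 514 ± 49.0 and 455 ± 12.6 FPKM, and of SLC3A2, the heavy chain of the cystine transporter, with 109 ± 37.8 and 139 ± 31.0 FPKM (mean ± SD of 3 libraries in each group; limma adjusted p = 0.584 and 0.587). Of 15 tested genes of the thioredoxin and peroxiredoxin system, 12 were higher and 3 lower by estimate, and 2 had an unadjusted p under 0.05, both higher. These were PRDX4, the peroxiredoxin of the endoplasmic reticulum, with 62.0 ± 0.706 and 70.7 ± 4.57 FPKM, and TXNRD2, the mitochondrial counterpart of TXNRD1, with 17.8 ± 1.11 and 20.5 ± 1.23 FPKM (mean ± SD of 3 libraries in each group; limma adjusted p = 0.479 and 0.480). Among all tested genes 7.73% had such a p and were higher.

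Of 16 tested genes on the list for NADPH production besides PGD and ME1, 14 were higher and 2 lower by estimate, with 3 at an unadjusted p under 0.05 among the higher and 1 among the lower, where 7.73% and 2.41% of all tested genes were so. The list also holds enzymes of the pentose phosphate pathway that do not make NADPH themselves, RPIA among them. RPIA, the ribose phosphate isomerase, had 5.97 ± 0.585 and 7.32 ± 0.151 FPKM, and IDH1, the cytosolic isocitrate dehydrogenase that makes NADPH, had 82.2 ± 5.84 and 69.8 ± 2.79 FPKM (mean ± SD of 3 libraries in each group; limma adjusted p = 0.344 and 0.405). Of 30 other NRF2 targets 23 were tested, 13 were higher and 10 lower by estimate, and 2 had an unadjusted p under 0.05, both lower, where 2.41% of all tested genes were so. These were PIR, pirin, with 19.5 ± 1.19 and 16.8 ± 0.803 FPKM, and AKR1C3, an aldo-keto reductase that converts steroids, with 9.78 ± 1.65 and 7.94 ± 0.277 FPKM (mean ± SD of 3 libraries in each group; limma adjusted p = 0.435 and 0.449). The background of 2.41% depends on the scaling, as 815 of 12359 tested genes were lower at an unadjusted p under 0.05 under median centring. AKR1C1 and AKR1C2, close paralogs of AKR1C3, were at most 0.347 FPKM, and reads that the 3 genes share are of uncertain origin. The list for superoxide and peroxide removal had 4 tested genes, SOD1, SOD2, CAT and CCS, all lower by estimate with 0 at an unadjusted p under 0.05. SOD2, the manganese superoxide dismutase, had 60.0 ± 8.96 and 52.4 ± 1.22 FPKM, and CCS, the copper chaperone of SOD1, had 9.54 ± 0.173 and 8.74 ± 0.430 FPKM (mean ± SD of 3 libraries in each group; limma adjusted p = 0.573 and 0.628). Peroxidases on the other lists mostly went the other way. GPX1, GPX8, PRDX1, PRDX2, PRDX3, PRDX4 and PRDX6 were higher by estimate, with log2 fold changes from 0.0070 (PRDX1) to 0.18 (PRDX4). GPX4 and PRDX5 were lower, at -0.11 and -0.025.

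**Figure D4:**
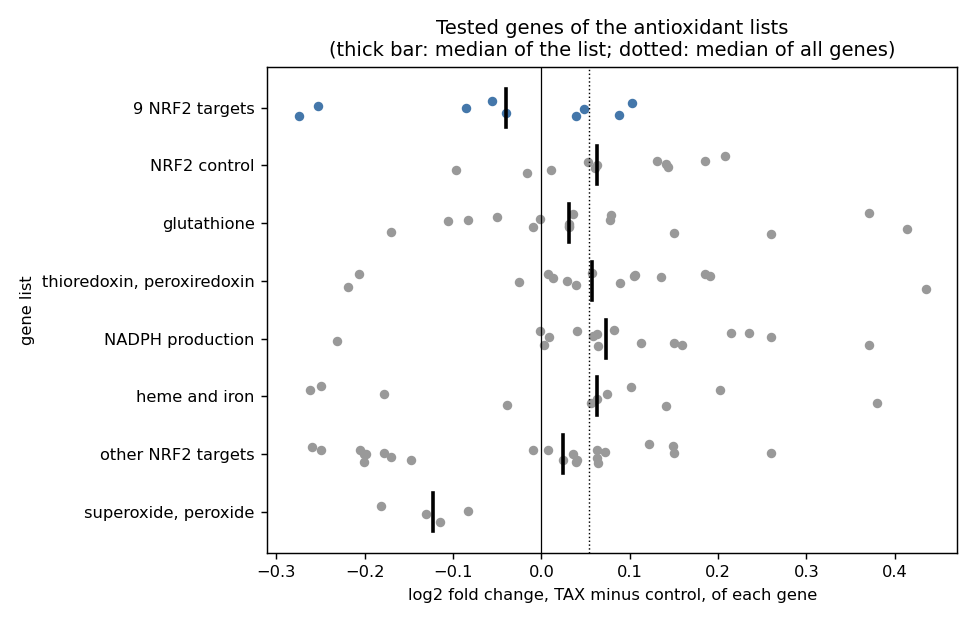
Log2 fold change, TAX minus control (horizontal axis), of each tested gene in the 9 NRF2 targets (blue) and 7 further lists (grey), 1 point per gene, with the list's median as a thick bar. The median is -0.040 for the 9 targets, between 0.024 and 0.073 for 6 of the further lists and -0.12 for the list of SOD1, SOD2, CAT and CCS.

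Between replicates of one group, GCLC, TXNRD1 and ME1 moved together. Taken as deviations from the mean of their own group, control replicate 2 was high in all 3 genes, by 0.37, 0.15 and 0.13 on the log2(FPKM + 1) scale, and control replicate 3 was low, by -0.31, -0.15 and -0.15. In the TAX group, replicate 2 was the low library for these 3 genes. Pearson's r of these deviations was 0.991 between GCLC and TXNRD1, 0.993 between TXNRD1 and ME1 and 0.967 between GCLC and ME1, over 6 libraries that share their scaling and their group means, which makes this a description. SRXN1 followed them less closely (r = 0.777 with GCLC, 0.851 with TXNRD1 and 0.898 with ME1). GCLM, NQO1 and PGD followed another order, with TAX replicate 2 the highest of the TAX libraries. Their r was 0.869 between GCLM and NQO1, 0.797 between GCLM and PGD and 0.616 between NQO1 and PGD, against 0.323, -0.032 and -0.055 with GCLC for GCLM, NQO1 and PGD. The sets were not sharply divided. GCLM and PGD had r of 0.727 and 0.565 with SRXN1 and 0.622 and 0.708 with HMOX1, while NQO1 had 0.315 and 0.175. HMOX1 in turn had r of 0.554, 0.632 and 0.696 with GCLC, TXNRD1 and ME1. SLC7A11, SLC3A2, CHAC1 and SESN2, picked after their values were seen, had the pattern of GCLC. In SLC7A11, the light chain of the cystine transporter, the controls ran from 0.27 in replicate 2 to -0.20 in replicate 3, less far than in GCLC. The other three had wider swings than GCLC, from 0.67 in control replicate 2 to -0.57 in control replicate 3 for CHAC1, an enzyme that degrades glutathione. This library order was not particular to antioxidant genes. MAFK had 41.9, 59.1 and 38.1 FPKM in the control and 49.4, 34.4 and 45.3 FPKM in the TAX libraries, the same order as GCLC. Over all tested genes the deviations of control replicate 2 correlated at 0.278 with those of TAX replicate 1 and at -0.333 with those of TAX replicate 2. The part of these library differences in the GCLC estimate was not tested.

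**Figure D5:**
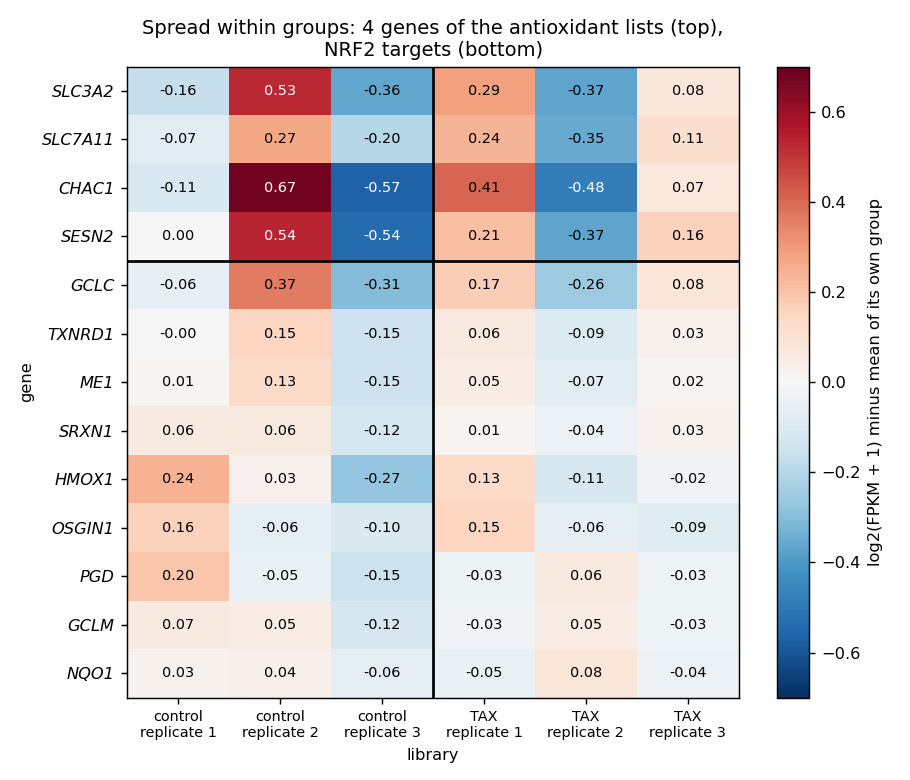
Deviation of log2(FPKM + 1) from the mean of the library's own group (colour and printed value) for 4 genes of the glutathione and thioredoxin lists (top) and the 9 NRF2 targets (bottom), 1 column per library. GCLC, TXNRD1 and ME1 are high in control replicate 2 and low in control replicate 3 and TAX replicate 2, while NQO1, GCLM and PGD are higher in TAX replicate 2 than in the other TAX libraries.

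Control replicate 3 was the lowest of the 3 controls for 9 of the 9 genes and for 72.3% of all tested genes. After each library was centred on its median this held for 4 of the 9 genes and for 30.7% of all tested genes. The mean of the 9 standardised profiles was 0.72 and 0.65 in control replicates 1 and 2, -1.1 in control replicate 3 and 0.16, -0.22 and -0.18 in the TAX replicates. Among 8392 other named genes with a mean of at least 5 FPKM, those whose 6 values followed this mean most closely were GALNS, NUCB1, RBCK1, DDX42 and KRT7, with Pearson's r from 0.9897 to 0.9943. All 5 were lowest in control replicate 3, as in NUCB1 with 40.2, 40.5 and 29.7 FPKM in the control and 37.3, 35.6 and 35.5 FPKM in the TAX libraries, and none is on the lists of NRF2 targets used here.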

How the data were processed

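mRNA libraries of DU145 cells, 3 labelled control and 3 TAX, were sequenced, and the authors deposited a gene-level table for each, whose values were read as FPKM, with replicates not pooled. The submitters' processing notes name HISAT2 2.2.0, StringTie 2.1.2 and GRCh38. Annotation and filters are not given in the sources used here, and the tables do not name the unit. Sums differ between libraries and stay far below what TPM would give, and 3130 identifiers carry StringTie's MSTRG prefix. Low values showed no whole-read steps (at most 5.72% of 332 ratios in any bin of 0.1), so depth is unknown and no counting interval is given.

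Genes that reached 1 FPKM in 3 or more libraries were fitted on log2(FPKM + 1) with limma 3.58.1 in R 4.3.3 (eBayes with trend, two-sided, Benjamini-Hochberg over all tested genes). On this scale the change of low genes is understated. The fit was tested on simulated data. A further gene of the marker lists is not reported here. Exact permutation tests covered every division of the libraries into 3 and 3. Members, lists and named genes were chosen with earlier results of these data known. Named are the 9 members, 8 genes of NRF2 control, from each other list the genes with an adjusted p under 0.05 or else the 2 with the smallest p, and the 5 genes most like the mean standardised profile. EID3, AL121758.1, AKR1C1, AKR1C2, SLC7A11, CHAC1, SESN2, SOD1, CAT, GPX1, GPX4, GPX8, PRDX1, PRDX2, PRDX3, PRDX5, PRDX6 and the cell type markers were named outside this rule. Positions are from GENCODE 29 and promoter windows from RefSeq (GRCh38.p14). Alternatives were another pseudocount, 2 other filters, quantile normalization, median centring, scaling to a common sum, no trend, a replicate block and leaving out each library.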

Additional observations from a re-analysis of the deposited data

How the results depend on the processing

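In all 14 alternatives 0 of the 9 NRF2 targets had an adjusted p under 0.05 (limma), the smallest being 0.178 for HMOX1 without control replicate 3. Of 126 estimates of the 9 genes 119 kept their direction. TXNRD1 turned to -0.0059 under quantile normalization and -0.019 under median centring, and SRXN1 to -0.037 and -0.0095. With each library left out in turn TXNRD1 ran from -0.034 to 0.11, SRXN1 from -0.013 to 0.079 and PGD from -0.16 to 0.013, with an adjusted p over 0.05 throughout. The causes were not tested. Targets at an unadjusted p under 0.05 numbered 1 (HMOX1) under quantile normalization, median centring, scaling to a common sum and the replicate block, and 0 to 2 without single libraries (HMOX1 and GCLC without control replicate 3). Of all 12359 tested genes, 1460, 1497, 1552 and 971 had such a p in the first 4 of these settings, in that order. Without control replicate 3 it was 1398 of 12292. Targets without overlap between groups numbered 3 under quantile normalization (HMOX1, GCLM and PGD), 2 under median centring (HMOX1 and GCLM), 2 with scaling to a common sum (GCLM and PGD) and 0 to 3 without single libraries. The share of all tested genes without overlap was not counted in these settings, so these numbers have no background. Without a library, separation can follow from leaving out the library that overlapped. The median of the targets relative to all genes stayed between -0.13 and -0.058, and the log2 difference in the ratio of GCLM to GCLC, for which no p below 0.1 is possible, ran from 0.039 to 0.30 without single libraries.

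Over all tested genes 59 passed, 39 higher and 20 lower. This count was 1 without a filter on low values (over 20280 genes, with 1854 at an unadjusted p under 0.05), 95 under quantile normalization (47 higher, 48 lower), 96 under median centring (46 higher, 50 lower), 26 with the replicate block (13 higher, 13 lower), and 18 to 43 without single libraries, lowest without TAX replicate 2. Whether the replicate numbers pair the samples is not known. Deviations of same-numbered libraries correlated at -0.117, -0.333 and -0.171, which gave no sign of pairing but cannot exclude it with 3 libraries per group. A fit blocked on the replicate number changed no adjusted call among the 9 targets.

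Of 350 estimates of the 25 other named genes 331 kept their direction. KEAP1 turned to -0.0083 and CUL3 to -0.00091 under quantile normalization, and the other turns came without single libraries. There NFE2L2 ran from -0.18 to 0.093, KEAP1 from -0.026 to 0.14, CUL3 from -0.042 to 0.13, MAFK from -0.22 to 0.088, GALNS from -0.10 to 0.031, NUCB1 from -0.16 to 0.061, DDX42 from -0.068 to 0.020 and KRT7 from -0.16 to 0.067. None of these estimates had an adjusted p under 0.05. The depth of the libraries is unknown, so what depth limits cannot be stated, and 3 libraries per group limit the intervals given.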
